A study of Mus musculus with 16 samples.

Results

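The input RNA of cold adipose tissue from Mettl3 conditional knockout mice was compared with that of cold wild-type mice over all genes with at least 1 RPKM (reads scaled to gene length and to the total reads of a library) in at least 2 of the 4 libraries. That rule kept 11649 of the 17883 genes in the deposited matrix, and the 4 libraries are part of 16 in the series. The knockout mice (cKO cold) were METTL3 flox/flox Adipoq-Cre +/-, so that Cre was driven by the adiponectin promoter, which is active in adipocytes, while the control mice (WT cold) were METTL3 flox/flox with no Cre. Both groups were C57BL/6 mice aged 8 weeks that had been housed singly for 7 days at 4 °C, and each gave 2 input libraries. The fat depot is not given in the sources used here. The controls carried no Cre, so effects of Cre and of Mettl3 loss cannot be told apart in this design. Adipose tissue also holds vessels, fibroblasts and immune cells that do not express this Cre. The labels do not say whether replicates were different mice, and the p-values therefore reflect the spread of these libraries alone, which may be technical. The question is how RNA of cold-exposed fat differs when adipocytes carry the Mettl3 deletion.

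METTL3 is the catalytic subunit of the complex that writes N6-methyladenosine (m6A) on mRNA, a mark that reader proteins use to change the stability and translation of a transcript. White fat of mice responds to long cold with beiging: some adipocytes gain many mitochondria and UCP1, an uncoupling protein of the inner mitochondrial membrane that turns the energy of fuel oxidation into heat. Noradrenaline acting on the beta-3 adrenergic receptor starts this programme, and the coactivators PGC-1alpha and PGC-1beta carry it to mitochondrial and fatty acid oxidation genes.

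The cKO cold inputs held 4511639 and 3895031 reads on listed genes, and the WT cold inputs 8673393 and 4453872. Changes are log2 fold changes of RPKM + 1 in cKO cold over WT cold, with standard errors and n = 2 libraries per group. They were tested with limma in a fit over 6 inputs. Among these were 2 WT libraries at room temperature (WT RT), from mice also aged 8 weeks, which contributed only to the estimate of the spread. Because 1 RPKM was added, fold changes of weakly expressed genes are understated. RPKM values are shares of a library, and genes of mitochondrial DNA took 6.22% and 6.62% of the reads in cKO cold, against 15.1% and 13.7% in WT cold. The median gene stood at 9.25 and 8.98 RPKM in the cKO cold libraries, against 6.59 and 5.88 RPKM in the WT cold libraries, and the median change of all genes tested was 0.42. Every gene was therefore tested a second time with each library centred on its median gene. In what follows, "rose" and "fell" mean a Benjamini-Hochberg adjusted p under 0.05 in the same direction in both fits, and adjusted p-values are those of the values as deposited unless the centred fit is named.

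With the values as deposited, 3148 genes (27%) were higher and 381 (3.27%) lower in cKO cold. After centring, 675 (5.79%) were higher and 992 (8.52%) lower. The 2 groups did not overlap for 58.6% of genes with cKO cold higher and for 8.67% with cKO cold lower. In both fits together 675 genes rose (5.79% of those tested) and 381 fell (3.27%). As deposited, the rises had a median size of 1.65 on the log2 scale, and 165 of them exceeded 2. The falls had a median size of 0.91, and 21 of them exceeded 2. The median change of all genes as deposited was 0.42, which adds to rises and takes from falls. The 2 directions can therefore not be compared by these sizes. Counts depended on single libraries. Rises numbered 298 without either WT RT replicate, 341 without WT cold replicate 2 and 315 without cKO cold replicate 1, and falls numbered 233, 299 and 251 in the same order. In total 180 rises and 174 falls were called in both fits without each of the 6 libraries in turn.

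**Figure D1:**
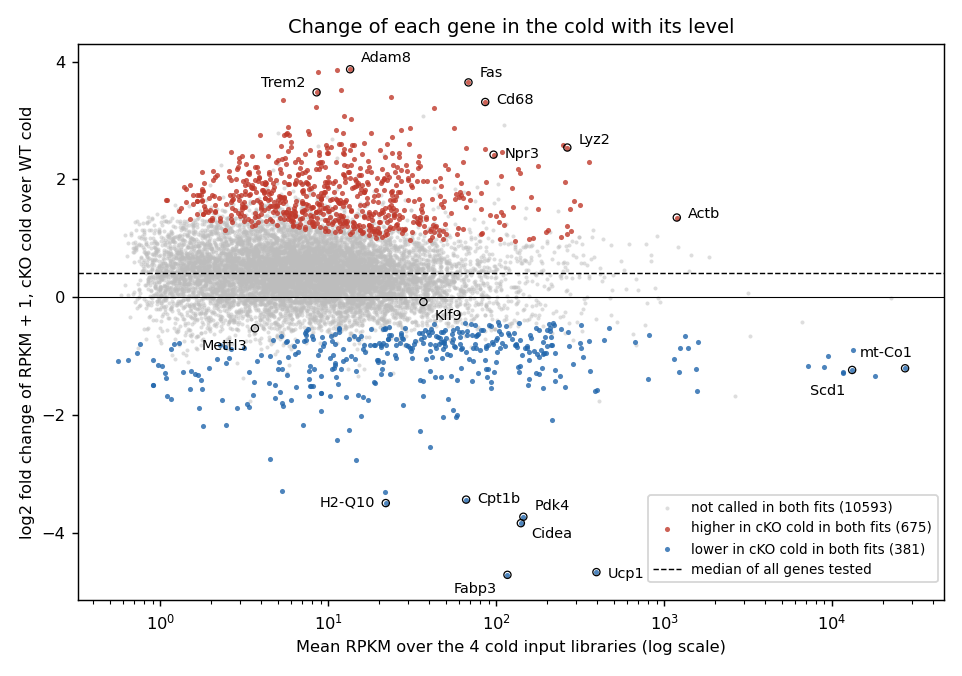
Each point is 1 of 11649 genes, with its mean RPKM over the 4 cold inputs on a log scale on the x axis and its log2 fold change of RPKM + 1, cKO cold over WT cold, on the y axis. Red points rose and blue points fell in both fits (675 and 381 genes), the dashed line marks the median of all genes at 0.42, and Ucp1, Fabp3 and Cidea lie at the bottom while Adam8, Fas and Cd68 lie at the top.

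Mettl3 RNA was lower on average in cKO cold, but the groups overlapped. Mettl3 (chr14:52294841-52308741 in GRCm38.p6) had 3.83 and 1.90 RPKM in the cKO cold libraries, against 5.24 and 3.66 RPKM in the WT cold libraries. These values rest on 35 and 15 reads in cKO cold and on 92 and 33 reads in WT cold. Replicate 1 of cKO cold thus lay above replicate 2 of WT cold. The log2 fold change was -0.53 ± 0.29 with the values as deposited (adjusted p = 0.199) and -1.01 ± 0.27 after centring (adjusted p = 0.0492), a call lost without any 1 of the other libraries except cKO cold replicate 1 (adjusted p = 0.095 to 0.124). The values are per gene and do not show a deleted exon, and how much Mettl3 RNA came from cells without Cre was not measured. Klf9 (chr19:23141226-23168129), the zinc finger transcription factor named in the title of the series, had 38.6 and 32.0 RPKM in cKO cold, against 28.8 and 48.0 RPKM in WT cold. The cKO values lay between the WT values, and the change of -0.08 ± 0.24 did not pass the test (adjusted p = 0.814). After centring it was -0.56 ± 0.27 (adjusted p = 0.204), and it passed only without WT cold replicate 1 (adjusted p = 0.021).

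Genes of heat production were far lower in cold cKO fat. Of 31 thermogenic and beige genes tested, 23 fell and 0 rose, with a list median of -1.68 beside 0.42 for all genes. Their summed level was 437 and 417 RPKM in cKO cold, against 2732 and 2585 RPKM in WT cold. In bulk tissue, fewer cells of a type and less RNA per cell cannot be told apart. Ucp1 (chr8:83290348-83298456) had 76.3 and 10.04 RPKM in cKO cold, against 854 and 639 RPKM in WT cold. Both cKO libraries lay well below both WT libraries, though the cKO values themselves differed several-fold. Its change was -4.66 ± 0.90 (adjusted p = 0.0114), and the centred call was lost without WT cold replicate 1 (adjusted p = 0.0512) or replicate 2 (adjusted p = 0.0643). Cidea, which sits on the lipid droplets of thermogenic adipocytes, had 17.3 and 17.7 RPKM in cKO cold, against 262 and 263 RPKM in WT cold. It combined one of the largest changes with nearly equal replicates (-3.83 ± 0.26, adjusted p = 0.00168). Elovl3, which lengthens saturated fatty acids and is strongly induced by cold in fat, had 7.78 and 15.01 RPKM in cKO cold, against 84.5 and 54.5 RPKM in WT cold (-2.54 ± 0.33). Otop1, a proton channel found in brown fat, had 2.33 and 3.68 RPKM in cKO cold, against 29.9 and 22.4 RPKM in WT cold (-2.77 ± 0.27). The muscle-type cytochrome oxidase subunits Cox8b (-2.08) and Cox7a1 (-1.996), which brown fat also uses, and the brown fat mitochondrial protein Letmd1 (-2.03) fell as well.

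The signals and regulators of this programme were split. Adrb3, the beta-3 adrenergic receptor, had 25.2 and 22.1 RPKM in cKO cold, against 55.7 and 68.9 RPKM in WT cold (-1.36 ± 0.15, adjusted p = 0.00352). Dio2, the deiodinase that activates thyroid hormone, had 4.57 and 3.71 RPKM in cKO cold, against 11.4 and 11.003 RPKM in WT cold (-1.25). Ppargc1a, which encodes PGC-1alpha, had 2.61 and 2.86 RPKM in cKO cold, against 6.46 and 10.7 RPKM in WT cold (-1.32). Ppargc1b, for PGC-1beta, had 5.19 and 9.64 RPKM in cKO cold, against 19.8 and 34.5 RPKM in WT cold (-1.74). Ppara, the nuclear receptor that drives fatty acid oxidation genes, had 1.69 and 3.61 RPKM in cKO cold, against 10.9 and 28.8 RPKM in WT cold (-2.42). Each of these last 3 genes was low in both cKO libraries, but their calls were lost without cKO cold replicate 1 (adjusted p = 0.0504 to 0.0538 as deposited). Bmp8b, a secreted factor of activated brown fat, had 0 reads in both cKO libraries and 72 reads over the WT cold libraries, and was at least 15.4-fold lower, taking 3 reads in the group as the floor. The transcription factors known to fix brown and beige identity did not pass in either fit: Prdm16 had 2.60 and 4.15 RPKM in cKO cold, against 3.54 and 1.83 RPKM in WT cold, and Ebf2 had 14.9 and 9.96 RPKM in cKO cold, against 9.81 and 8.24 RPKM in WT cold. Among beige markers, Tmem26 was the only gene of this list that was higher as deposited (1.30, adjusted p = 0.0166), and it did not pass after centring (adjusted p = 0.079).

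**Figure D2:**
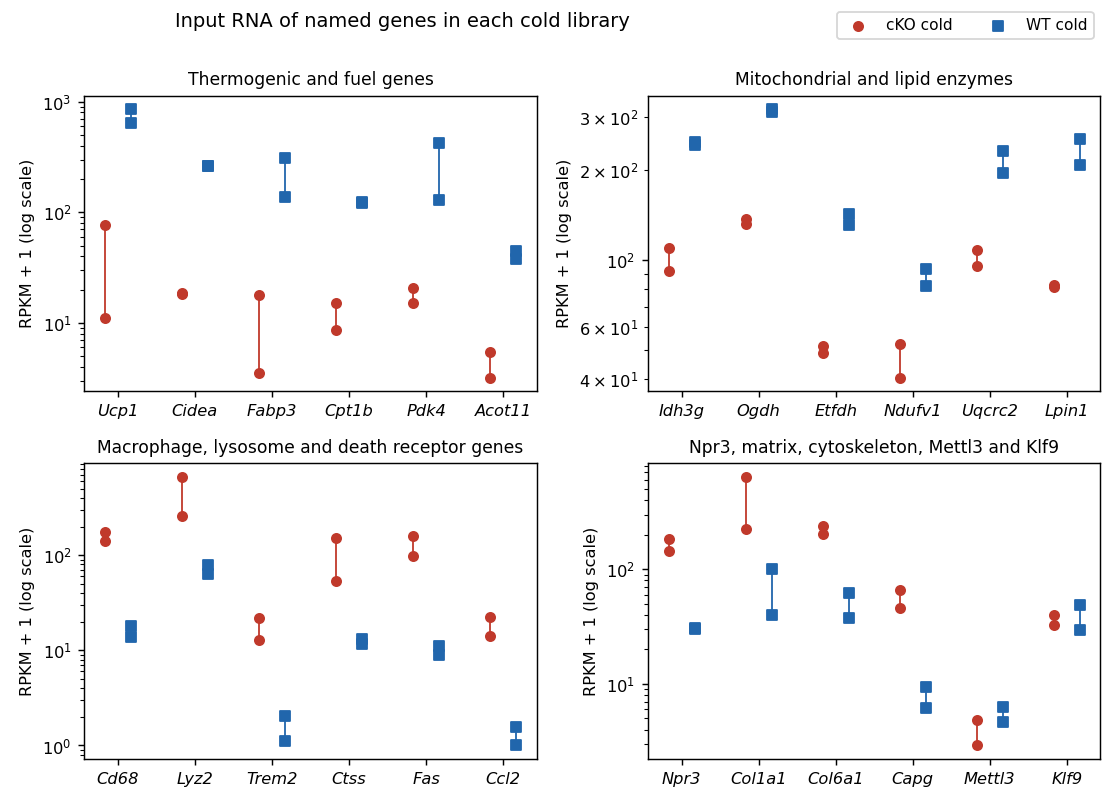
RPKM + 1 of 24 named genes in each cold input library on a log scale, with red circles for the 2 cKO cold libraries and blue squares for the 2 WT cold libraries, joined by a line within a group. The thermogenic and mitochondrial genes are lower in both cKO libraries, the macrophage and matrix genes are higher in both, and the groups overlap for Mettl3 and Klf9.

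Most mitochondrial fatty acid oxidation genes fell. Of 25 mitochondrial fatty acid oxidation genes tested, 18 fell and 0 rose (median -0.97), and of 22 peroxisomal ones 7 fell and 0 rose (median -0.30). Cpt1b, the muscle-type carnitine palmitoyltransferase that lets long-chain fatty acids into mitochondria, had 14.1 and 7.54 RPKM in cKO cold, against 120 and 123 RPKM in WT cold (-3.43 ± 0.26, adjusted p = 0.00193). Fabp3, a fatty acid binding protein of heart and brown fat, had 16.96 and 2.50 RPKM in cKO cold, against 310 and 137 RPKM in WT cold, the largest fall of all genes tested (-4.71 ± 0.72). In both cases each cKO library lay several-fold below the lower WT library. Slc25a20, the carrier that exchanges acylcarnitines across the inner membrane, had 36.7 and 40.3 RPKM in cKO cold, against 117 and 93.2 RPKM in WT cold (-1.42). Etfdh, which hands electrons from fatty acid oxidation to ubiquinone, had 48.1 and 50.8 RPKM in cKO cold, against 142 and 130 RPKM in WT cold (-1.44 ± 0.13). Pdk4, the kinase that shuts pyruvate dehydrogenase and so spares glucose, had 19.5 and 14.1 RPKM in cKO cold, against 128 and 419 RPKM in WT cold (-3.72 ± 0.56). The fatty acid transporter and acyl-CoA synthetase Slc27a2 (0.228 and 0 RPKM in cKO cold, against 14.7 and 6.39 RPKM in WT cold) and the thioesterase Acot11 (4.45 and 2.18 RPKM in cKO cold, against 37.0 and 43.8 RPKM in WT cold) were far lower in cKO fat, as was the medium-chain acyl-CoA synthetase Acsm3 (0.202 and 0.545 RPKM in cKO cold, against 5.49 and 11.9 RPKM in WT cold). Among the synthetases, Acsl5 fell (-1.42), while the far more abundant Acsl1 had 733 and 1099 RPKM in cKO cold, against 800 and 1136 RPKM in WT cold, and did not pass (-0.09 ± 0.25, adjusted p = 0.801). In peroxisomes, Ehhadh, the bifunctional enzyme of beta-oxidation, had 20.0 and 22.9 RPKM in cKO cold, against 66.0 and 123 RPKM in WT cold (-2.02 ± 0.28).

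Many mRNAs of the TCA cycle and the respiratory chain fell. In the TCA cycle 19 of 22 genes tested fell and 0 rose (median -0.88), and the count stayed at 17 or 18 without each of the 6 libraries. Ogdh, the core of the 2-oxoglutarate dehydrogenase complex, had 131 and 136 RPKM in cKO cold, against 317 and 311 RPKM in WT cold (-1.23 ± 0.11). Idh3g, a subunit of the NAD-dependent isocitrate dehydrogenase, had 109 and 90.6 RPKM in cKO cold, against 240.2 and 247 RPKM in WT cold (-1.29 ± 0.14, adjusted p = 0.00317). Sucla2, a subunit of succinyl-CoA synthetase, had 52.4 and 60.3 RPKM in cKO cold, against 154 and 121 RPKM in WT cold (-1.26 ± 0.16). For these enzymes the replicates of a group differed far less than the groups did.

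In complex I, the entry point for electrons from NADH, 26 of 36 subunits tested fell and 0 rose (median -0.66). The changes of all 36 were negative. Ndufv1, the subunit that takes electrons from NADH, had 39.5 and 51.3 RPKM in cKO cold, against 80.9 and 92.0 RPKM in WT cold (-0.92). Of 35 genes tested for complexes III to V, a list that also holds cytochrome c, 19 fell and 1 rose (median -0.49). The falls numbered 12 without WT RT replicate 1, WT RT replicate 2 or cKO cold replicate 1. Cycs, cytochrome c, had 14.1 and 24.4 RPKM in cKO cold, against 59.7 and 43.0 RPKM in WT cold (-1.40). Atp5b, the catalytic subunit of ATP synthase, had 493 and 502 RPKM in cKO cold, against 839 and 849 RPKM in WT cold (-0.76 ± 0.13). The exception was Atp5g1, 1 of several genes for the same ring subunit, with 8.74 and 10.2 RPKM in cKO cold, against 3.96 and 3.14 RPKM in WT cold (1.21 ± 0.20), whose centred call was lost without any 1 of the libraries. The 10 mRNAs of mitochondrial DNA tested all fell (median -1.21). The most abundant, mt-Co1, had 16423 and 16461 RPKM in cKO cold, against 38504 and 37289 RPKM in WT cold (-1.20 ± 0.20). With quantile scaling this fall was -0.52 and its call was lost (adjusted p = 0.122), so its size depended on the scaling. The call was also lost with no filter (adjusted p = 0.128 as deposited and 0.0662 after centring). After centring it was lost without WT cold replicate 2 as well. Mitochondrial import (2 of 23 fell, 0 rose) and coenzyme Q and cristae genes (4 of 22 fell, 0 rose) gave fewer calls, with medians of 0.10 and -0.43. The import count was 1 without any library but cKO cold replicate 2. The coenzyme Q and cristae count was 1 without either WT RT replicate, 2 without WT cold replicate 2 or cKO cold replicate 1 and 8 without cKO cold replicate 2. Coq8a, an atypical kinase needed to make coenzyme Q, had 8.26 and 6.06 RPKM in cKO cold, against 25.0 RPKM in both WT cold libraries (-1.69 ± 0.19).

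**Figure D3:**
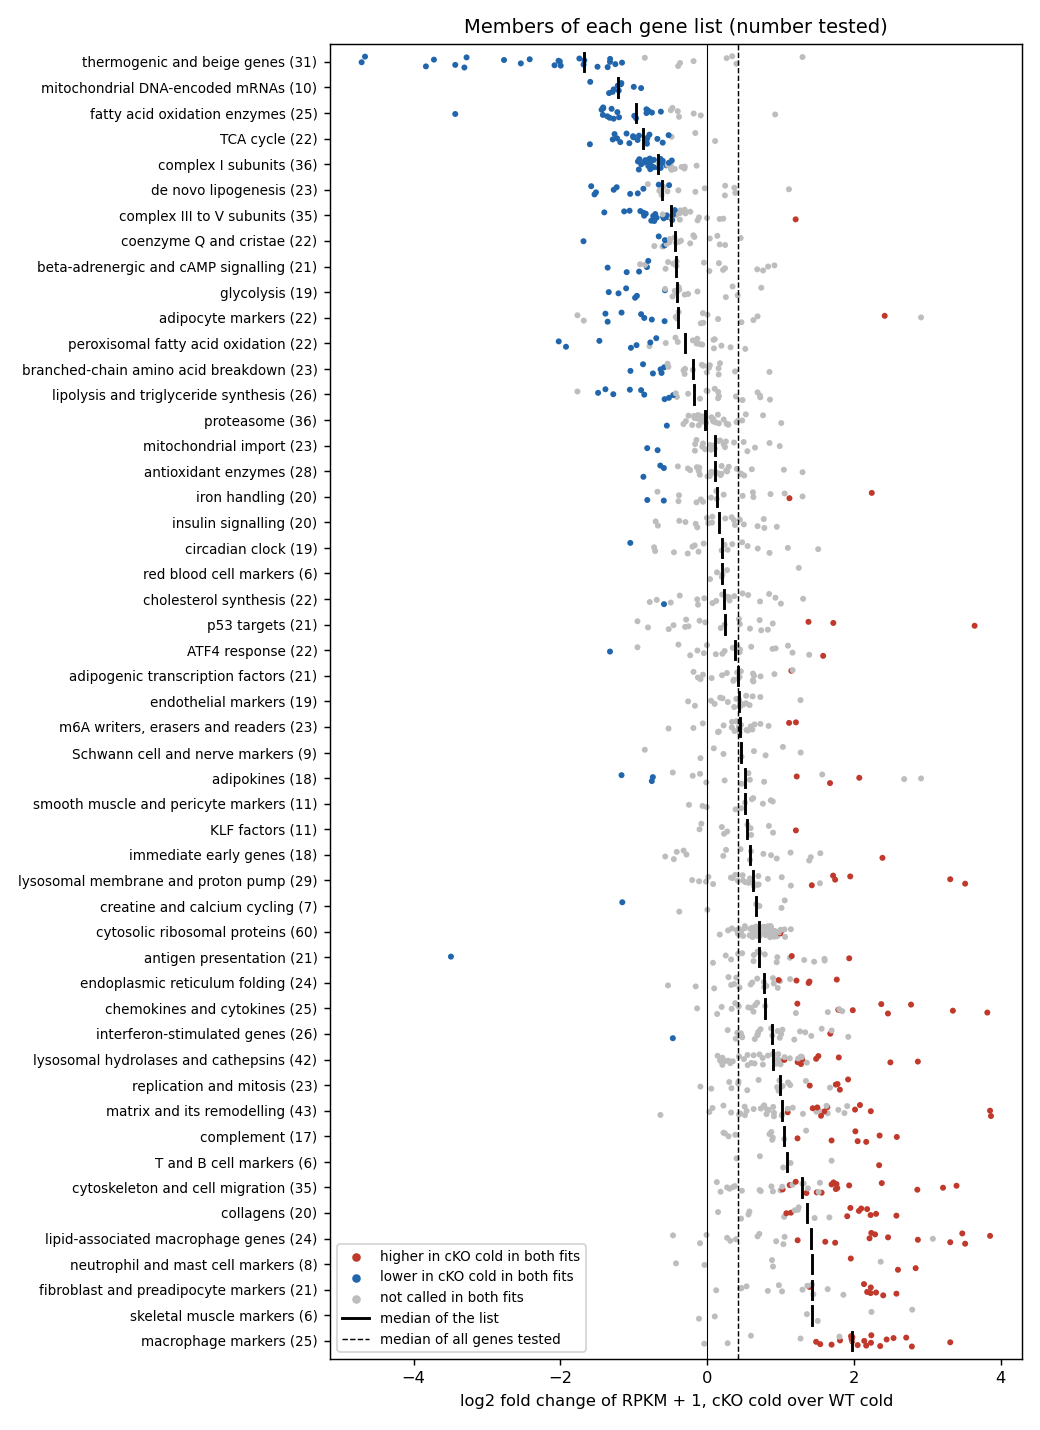
Each row is a gene list with at least 6 members tested and each point a member, at its log2 fold change of RPKM + 1, cKO cold over WT cold. Red members rose, blue members fell and grey members passed in neither or only 1 fit, a black bar marks the list median and the dashed line the median of all genes at 0.42, so that lists of heat production and mitochondria stand at the top left and macrophage markers at the bottom right.

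Some promoters of respiratory subunits hold letters that match the consensus of nuclear respiratory factor 1 (NRF1): GCGCA, any base, then GCGC, which on the other strand reads GCGC, any base, then TGCGC. RefSeq promoters (GRCm38.p6, 250 bases before to 50 after the start) were searched on both strands. The motif was in 8 of 34 promoters of complex I genes (23.5%) and in 8 of 31 of complex III to V genes (25.8%), beside 9.87% of 11940 promoters of the genes tested and 4.60% of all 32851 promoters. Over all genes that fell it was in 41 of 378 promoters (10.85%), close to the share of the genes tested. Of the 45 genes of the complex I and complex III to V lists that fell, 8 of 37 with a promoter in the table held it. The following 3 had the largest falls among those 8 and are shown for the position of the motif, in capitals, relative to the start, which lies 50 bases from the right end. A match is a description of the letters and not a bound site.
Uqcrc1 (chr9:108936398-108936697, plus strand): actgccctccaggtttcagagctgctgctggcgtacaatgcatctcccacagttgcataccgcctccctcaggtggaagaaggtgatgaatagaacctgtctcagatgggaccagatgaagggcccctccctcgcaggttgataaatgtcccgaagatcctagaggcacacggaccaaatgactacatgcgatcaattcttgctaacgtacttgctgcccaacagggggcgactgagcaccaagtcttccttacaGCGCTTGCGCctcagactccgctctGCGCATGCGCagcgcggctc
Ndufb4 (chr16:37654319-37654618, minus strand): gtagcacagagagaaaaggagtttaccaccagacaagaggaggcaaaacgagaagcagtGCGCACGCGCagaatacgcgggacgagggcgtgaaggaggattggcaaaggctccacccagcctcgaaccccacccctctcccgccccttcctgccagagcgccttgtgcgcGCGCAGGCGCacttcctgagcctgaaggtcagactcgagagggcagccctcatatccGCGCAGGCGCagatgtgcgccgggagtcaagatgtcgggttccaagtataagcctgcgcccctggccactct
Ndufs6 (chr13:73328433-73328732, minus strand): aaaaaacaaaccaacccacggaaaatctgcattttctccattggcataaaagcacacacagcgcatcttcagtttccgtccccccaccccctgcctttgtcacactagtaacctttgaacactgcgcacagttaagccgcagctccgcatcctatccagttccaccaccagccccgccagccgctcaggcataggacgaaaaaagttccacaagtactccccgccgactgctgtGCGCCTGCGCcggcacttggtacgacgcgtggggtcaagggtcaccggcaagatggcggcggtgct
Uqcrc1, a core subunit of complex III, had 118 and 114 RPKM in cKO cold, against 223 and 216 RPKM in WT cold (-0.91 ± 0.12). Ndufb4 had 51.1 and 59.7 RPKM in cKO cold, against 103 and 105 RPKM in WT cold (-0.90). Ndufs6 had 39.4 and 41.6 RPKM in cKO cold, against 82.0 and 65.8 RPKM in WT cold (-0.84). Nrf1 itself had 12.5 and 7.92 RPKM in cKO cold, against 5.89 and 6.21 RPKM in WT cold and did not pass (0.64 ± 0.23, adjusted p = 0.0681). Tfam, the factor that packages and transcribes mitochondrial DNA, had 3.30 and 3.45 RPKM in cKO cold, against 4.07 and 3.88 RPKM in WT cold (-0.19, adjusted p = 0.47).

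Part of the enzymes that make fatty acids and triglyceride fell too. Of 23 genes of de novo lipogenesis tested, 10 fell and 0 rose (median -0.62). Slc25a1, the carrier that exports citrate from mitochondria, had 229 and 173 RPKM in cKO cold, against 640 and 559 RPKM in WT cold (-1.58 ± 0.26). Acacb, the acetyl-CoA carboxylase of the mitochondrial surface, had 90.3 and 103 RPKM in cKO cold, against 271 and 292 RPKM in WT cold (-1.54), and Elovl6, which extends palmitate, had 120 and 145 RPKM in cKO cold, against 330 and 432 RPKM in WT cold (-1.52). Both groups were well apart for these 3 genes. Scd1, the desaturase that makes oleate, had 6704 and 9088 RPKM in cKO cold, against 16998 and 19805 RPKM in WT cold (-1.23 ± 0.22). Its call was lost with quantile scaling (adjusted p = 0.825) or no filter (adjusted p = 0.0593), and after centring without WT cold replicate 2. Fasn, fatty acid synthase, did not pass as deposited (-0.65, adjusted p = 0.0781). Fasn passed with the replicate block (adjusted p = 0.0423) and after centring (adjusted p = 0.0361), and the centred call was lost without either WT cold replicate (adjusted p = 0.0642 and 0.143) or cKO cold replicate 1 (adjusted p = 0.139). The count of the list was 6 without WT cold replicate 1, 5 without WT cold replicate 2 and 4 without cKO cold replicate 1. In lipolysis and triglyceride synthesis 9 of 26 fell and 0 rose (median -0.18), and 5 fell without either WT RT replicate, 4 without WT cold replicate 2 and 3 without cKO cold replicate 1. Pnpla2, the first lipase of triglyceride breakdown (ATGL), had 545 and 355 RPKM in cKO cold, against 1133 and 1170 RPKM in WT cold (-1.39 ± 0.21). Lpin1, a phosphatidate phosphatase, had 80.1 and 81.7 RPKM in cKO cold, against 206 and 253 RPKM in WT cold (-1.49 ± 0.16). Gpd2, the mitochondrial glycerol phosphate dehydrogenase, had 45.1 and 44.4 RPKM in cKO cold, against 115 and 105 RPKM in WT cold (-1.28). Mogat2, a monoacylglycerol acyltransferase that is not in this list and so not in its counts, went the other way. It had 20.8 and 25.2 RPKM in cKO cold, against 1.36 and 2.40 RPKM in WT cold (3.08 ± 0.25, adjusted p = 0.00243).

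Of 22 adipocyte markers tested, 7 fell and 1 rose (median -0.40), with 4 falls without either WT RT replicate, WT cold replicate 2 or cKO cold replicate 1. Their summed level was 16050 and 16695 RPKM in cKO cold, against 21797 and 22581 RPKM in WT cold, and its part in the falls above was not tested. Retn, the hormone resistin, had 112 and 63.3 RPKM in cKO cold, against 209 and 173 RPKM in WT cold (-1.17 ± 0.26), a call lost without WT cold replicate 1 (adjusted p = 0.0594). Gpd1, the cytosolic glycerol phosphate dehydrogenase, had 816 and 942 RPKM in cKO cold, against 1738 and 1453 RPKM in WT cold (-0.86 ± 0.19), a call lost with quantile scaling (adjusted p = 0.134) and without WT cold replicate 1 (adjusted p = 0.0527) or cKO cold replicate 1 (adjusted p = 0.0721). Fabp4, the main fatty acid binding protein of adipocytes, did not pass as deposited (-0.41, adjusted p = 0.0976) and was lower after centring (-0.90, adjusted p = 0.0274), a call lost without any 1 library but cKO cold replicate 2. Pparg, the main transcription factor of adipocytes, had 101 and 130 RPKM in cKO cold, against 131 and 109 RPKM in WT cold, and did not pass as deposited (-0.06, adjusted p = 0.807) or after centring (-0.54, adjusted p = 0.0736). Plin1, the coat protein of the lipid droplet, had 330 and 369 RPKM in cKO cold, against 372 and 325 RPKM in WT cold. It did not pass in either fit (centred -0.48, adjusted p = 0.0562), but the centred call was made with a pseudocount of 0.25 (adjusted p = 0.0443) or no filter (adjusted p = 0.0496). Adipoq, the adiponectin mRNA whose promoter drives the Cre, had 621 and 724 RPKM in cKO cold, against 498 and 471 RPKM in WT cold (0.47, adjusted p = 0.0402), and did not pass after centring (adjusted p = 0.949). The marker that rose was Npr3, the clearance receptor for natriuretic peptides, with 183 and 144 RPKM in cKO cold, against 29.2 and 29.8 RPKM in WT cold (2.42 ± 0.17, adjusted p = 0.00168). Among secreted products, Metrnl (meteorin-like) had 22.6 and 18.5 RPKM in cKO cold, against 4.03 and 4.17 RPKM in WT cold (2.07 ± 0.18), and Angptl2 had 69.4 and 57.8 RPKM in cKO cold, against 23.5 and 15.6 RPKM in WT cold (1.67). Lep, for leptin, had 245 and 119 RPKM in cKO cold, against 76.1 and 5.72 RPKM in WT cold and did not pass (adjusted p = 0.061), though it did as deposited with the replicate block (adjusted p = 0.0174) or without WT cold replicate 1 (adjusted p = 0.00517). In glycolysis 6 of 19 fell and 0 rose, or 3 without cKO cold replicate 1, and in branched-chain amino acid breakdown 6 of 23 fell and 0 rose, or 3 without either WT RT replicate or cKO cold replicate 1. Pfkl, a phosphofructokinase subunit (-1.34), and Bckdha, the first subunit of the branched-chain keto acid dehydrogenase (-1.05), gave the largest fall in each. Insulin signalling genes gave 0 of 20 in either direction in both fits, with 4 higher as deposited and 3 lower after centring. Of all genes, 27% were higher as deposited and 8.52% lower after centring.

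Most macrophage markers rose. Of 25 macrophage markers tested, 19 rose and 0 fell, with a median of 1.98 beside 0.42 for all genes. Cd68, an endosomal and lysosomal glycoprotein of macrophages, had 175 and 139 RPKM in cKO cold, against 12.9 and 16.9 RPKM in WT cold (3.31 ± 0.18, adjusted p = 0.00108). Adgre1, which encodes F4/80, had 47.8 and 17.6 RPKM in cKO cold, against 3.31 and 3.40 RPKM in WT cold (2.79 ± 0.41). Lyz2, lysozyme, had 664 and 255 RPKM in cKO cold, against 78.8 and 62.1 RPKM in WT cold (2.54 ± 0.39), and reads of its near-identical copy Lyz1 could not be told apart. Replicate 1 of cKO cold was the higher of the pair for these 3 genes, and both lay above WT cold. Mrc1, the mannose receptor, had 78.5 and 47.4 RPKM in cKO cold, against 16.02 and 13.5 RPKM in WT cold (1.98), whereas Cd163, a scavenger receptor of resident macrophages, had 21.3 and 10.2 RPKM in cKO cold, against 9.32 and 15.4 RPKM in WT cold and did not pass (adjusted p = 0.57). Of the markers, 12 rose without either WT RT replicate or WT cold replicate 1 and 8 without WT cold replicate 2. With all libraries as deposited 22 of 25 were higher, beside 27% of all genes. Their summed level was 2091 and 1036 RPKM in cKO cold, against 300.0 and 304.5 RPKM in WT cold.

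Several genes of lipid-associated macrophages, cells that gather around dying adipocytes and take up their lipid, stood among the largest changes of all. Of 24 tested, 12 rose and 0 fell (median 1.42), and 7 rose without WT cold replicate 1 or cKO cold replicate 1. Trem2, the lipid-sensing receptor that marks these cells, had 21.0 and 11.9 RPKM in cKO cold, against 0.109 and 1.06 RPKM in WT cold (3.48 ± 0.42, adjusted p = 0.00383). Mmp12, the macrophage elastase, had 31.0 and 12.9 RPKM in cKO cold, against 0 and 1.12 RPKM in WT cold (3.86 ± 0.53). Atp6v0d2, a proton pump subunit of macrophages and osteoclasts, had 33.4 and 12.3 RPKM in cKO cold, against 0.227 and 1.86 RPKM in WT cold (3.52 ± 0.58). Lgals3, galectin-3, had 203 and 167 RPKM in cKO cold, against 29.6 and 35.8 RPKM in WT cold (2.47 ± 0.16). Levels of these genes in WT cold were near or below 2 RPKM for the first 3. Another member, Cd36, the fatty acid translocase, had 732 and 789 RPKM in cKO cold, against 793 and 834 RPKM in WT cold (-0.10, adjusted p = 0.561), and was lower after centring (adjusted p = 0.0409).

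A minority of lysosomal genes rose. Of 42 hydrolases and cathepsins tested, 9 rose and 0 fell (median 0.90), where 5.79% of all genes rose. As deposited 28 were higher, beside 27% of all genes. Of 29 lysosomal membrane and proton pump genes, 6 rose and 0 fell (median 0.62). Ctss, a cathepsin of antigen-presenting cells, had 149 and 53.04 RPKM in cKO cold, against 10.6 and 12.1 RPKM in WT cold (2.87 ± 0.42). Cd63, a tetraspanin of late endosomes, had 97.9 and 79.9 RPKM in cKO cold, against 26.7 and 24.7 RPKM in WT cold (1.74 ± 0.15). Slc11a1, a metal transporter of phagosomes, had 25.3 and 15.9 RPKM in cKO cold, against 4.63 and 4.27 RPKM in WT cold (1.95). The most abundant hydrolase, Ctsd, had 740 and 770 RPKM in cKO cold, against 608 and 605 RPKM in WT cold and did not pass (0.32 ± 0.13, adjusted p = 0.0941). The rises of hydrolases numbered 4 without either WT RT replicate, 5 without WT cold replicate 1, 2 without WT cold replicate 2, 3 without cKO cold replicate 1 and 15 without cKO cold replicate 2. Macrophage markers moved with this list, in the summed levels above, and their part in it was not tested.

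The letters CACGTG, the core of the element that the lysosomal regulators TFEB and TFE3 bind, were in 12 of 37 promoters of the hydrolases and cathepsins (32.4%) and in 6 of 34 of the membrane and pump genes (17.6%). They were in 9.92% of the promoters of the genes tested, in 7.15% of all promoters and in 9.06% of 684 promoters of the genes that rose. CACGTG reads the same on both strands and lies within the longer TCACGTGA, which was searched as well. Of the 15 lysosomal genes that rose, 13 had a promoter in the table and 5 held the motif, and the 3 with the largest rises are shown, with the motif in capitals.
Lgmn (chr12:102439043-102439342, minus strand): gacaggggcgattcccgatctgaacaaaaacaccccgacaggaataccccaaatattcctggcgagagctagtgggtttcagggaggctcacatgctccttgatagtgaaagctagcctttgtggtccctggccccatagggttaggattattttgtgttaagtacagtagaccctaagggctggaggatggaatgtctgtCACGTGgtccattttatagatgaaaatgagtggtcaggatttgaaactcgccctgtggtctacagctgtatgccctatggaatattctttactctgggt
Naglu (chr11:101069844-101070143, plus strand): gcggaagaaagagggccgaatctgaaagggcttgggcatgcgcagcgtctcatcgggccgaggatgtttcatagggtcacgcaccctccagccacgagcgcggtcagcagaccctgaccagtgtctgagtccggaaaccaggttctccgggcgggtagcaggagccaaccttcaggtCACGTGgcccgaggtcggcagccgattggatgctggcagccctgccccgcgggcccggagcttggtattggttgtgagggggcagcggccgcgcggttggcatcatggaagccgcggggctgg
Glb1 (chr9:114400828-114401127, plus strand): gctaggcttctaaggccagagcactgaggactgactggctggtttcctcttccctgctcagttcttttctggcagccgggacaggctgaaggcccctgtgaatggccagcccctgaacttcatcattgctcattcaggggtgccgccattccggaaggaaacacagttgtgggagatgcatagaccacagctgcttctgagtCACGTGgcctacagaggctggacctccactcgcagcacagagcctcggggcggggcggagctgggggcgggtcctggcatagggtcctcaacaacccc
Lgmn, the asparaginyl endopeptidase legumain, had 122 and 69.7 RPKM in cKO cold, against 23.2 and 28.8 RPKM in WT cold (1.79 ± 0.26). Naglu, which trims heparan sulfate, had 17.1 and 12.3 RPKM in cKO cold, against 4.77 and 4.12 RPKM in WT cold (1.52), and Glb1, the lysosomal beta-galactosidase, had 18.6 and 15.3 RPKM in cKO cold, against 6.69 and 5.90 RPKM in WT cold (1.30). The centred call of each of these 3 was lost without WT cold replicate 2 or cKO cold replicate 1. That of Lgmn was also lost without WT cold replicate 1, and those of Naglu and Glb1 without either WT RT replicate. With the 4 cold inputs only, the centred calls of Naglu and Glb1 were lost too (limma adjusted p = 0.052 and 0.0716). Tfeb had 8.59 and 5.93 RPKM in cKO cold, against 5.62 and 4.89 RPKM in WT cold and did not pass (0.38, adjusted p = 0.19). In all 12 motifs were searched, and the 2 described were picked after their shares had been seen.

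Part of the chemokines and cytokines rose. Of 25 chemokines and cytokines tested, 8 rose and 0 fell (median 0.79), and 5 rose without either WT RT replicate or cKO cold replicate 1. Ccl2, the main monocyte chemokine, had 13.1 and 21.2 RPKM in cKO cold, against 0.567 and 0 RPKM in WT cold (3.82 ± 0.35, adjusted p = 0.00252). Ccl7, which acts on the same receptor, had 8.85 and 12.5 RPKM in cKO cold, against 0 and 0.28 RPKM in WT cold (3.35 ± 0.28). For both, replicate 2 of cKO cold was the higher, unlike the macrophage markers. Il1rn, the secreted antagonist of the interleukin-1 receptor, had 8.82 and 12.3 RPKM in cKO cold, against 0.174 and 1.36 RPKM in WT cold (2.78). Of 17 complement genes 7 rose and 0 fell (median 1.05), or 4 without either WT cold replicate and 3 without cKO cold replicate 1. C3ar1, the receptor for the C3a fragment, had 32.2 and 16.6 RPKM in cKO cold, against 2.14 and 4.17 RPKM in WT cold (2.58 ± 0.36). Fas, the death receptor and a target of p53, had 158 and 97.2 RPKM in cKO cold, against 7.94 and 10.2 RPKM in WT cold (3.65 ± 0.24, adjusted p = 0.00168). It stood alone at that size among 21 p53 targets tested, of which 3 rose and 0 fell (median 0.24), or 1 without any of 5 libraries, WT cold replicate 1 being the exception. Over all genes tested, 5.79% rose and 3.27% fell, with a median of 0.42, above that of the p53 targets. The protease gene Adam8, found on myeloid cells, had the largest rise of all genes tested (3.87 ± 0.29). It had 29.2 and 22.98 RPKM in cKO cold, against 1.26 and 0.504 RPKM in WT cold. The part of the macrophage markers, whose sums are given above, in the chemokine, complement and lipid-associated groups was not tested.

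Collagens and other matrix genes rose in part, with wide replicates. Of 20 collagens tested, 10 rose and 0 fell (median 1.36), and of 43 matrix and remodelling genes 11 rose and 0 fell (median 1.02). Col6a1, a chain of the pericellular type VI collagen, had 236 and 201 RPKM in cKO cold, against 61.0 and 36.7 RPKM in WT cold (2.18 ± 0.23, adjusted p = 0.00311). Vcan, the large proteoglycan versican, had 12.3 and 10.2 RPKM in cKO cold, against 2.68 and 1.25 RPKM in WT cold (2.08 ± 0.28). Col1a1, a chain of fibrillar type I collagen, had 639 and 223 RPKM in cKO cold, against 99.6 and 39.0 RPKM in WT cold (2.58 ± 0.55). Replicate 1 was the higher in both groups, and the call was lost without WT cold replicate 2 (adjusted p = 0.0647) or cKO cold replicate 1 (adjusted p = 0.0606), and after centring also without either WT RT replicate (adjusted p = 0.0641 and 0.0642). Rises of collagens numbered 5 without either WT RT replicate or WT cold replicate 2 and 3 without cKO cold replicate 1, and rises of matrix genes 6 without either WT RT replicate, 4 without WT cold replicate 2 or cKO cold replicate 1 and 20 without cKO cold replicate 2. Fibroblast and preadipocyte markers moved with them: 8 of 21 rose and 0 fell (median 1.43), at a summed level of 5559 and 2913 RPKM in cKO cold, against 1989 and 1770 RPKM in WT cold. That count was 3 without either WT RT replicate or WT cold replicate 2 and 1 without cKO cold replicate 1. These lists share genes, such as Col1a1, which is both a collagen and a member of the fibroblast and preadipocyte list. Their counts and sums are therefore not independent. The part of fibroblast abundance in the matrix genes was not tested.

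Cytoskeleton and migration genes gave 16 rises and 0 falls of 35 (median 1.30), with 11 to 17 rises without each of the 6 libraries. Lcp1, the actin bundler of white blood cells, had 84.0 and 71.8 RPKM in cKO cold, against 6.96 and 8.01 RPKM in WT cold (3.22 ± 0.14, adjusted p = 0.00076). Capg, an actin-capping protein of macrophages, had 64.9 and 44.9 RPKM in cKO cold, against 5.11 and 8.34 RPKM in WT cold (2.87 ± 0.25). S100a4, a calcium-binding protein of motile cells, had 46.3 and 40.7 RPKM in cKO cold, against 5.32 and 1.80 RPKM in WT cold (3.40). Even Actb, the cytoplasmic actin often used as a loading control, had 1753 and 1665 RPKM in cKO cold, against 654 and 682 RPKM in WT cold (1.35 ± 0.14). Its centred call was lost without WT cold replicate 1 (adjusted p = 0.0504) or cKO cold replicate 1 (adjusted p = 0.0565). Several genes of this list are known from macrophages, and the part of the macrophage markers in it was not tested.

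Marker lists of other cell types did not move as one. Of all genes tested, 58.6% were higher in both cKO cold libraries, and the median change of all genes was 0.42. The endothelial, smooth muscle and pericyte, and Schwann cell and nerve lists had medians near it (0.43, 0.52 and 0.47). Endothelial (0 of 19), smooth muscle and pericyte (0 of 11), Schwann cell and nerve (0 of 9), red blood cell (0 of 6) and skeletal muscle markers (0 of 6) gave no call in both fits, though the summed level of the first 3 was higher in both cKO cold libraries (endothelial 596 and 664 RPKM in cKO cold, against 483 and 536 RPKM in WT cold), and with a single library left out at most 1 call. Neutrophil and mast cell markers gave 3 rises of 8, or 1 without cKO cold replicate 1, among them the mast cell chymase Cma1, with 29.1 and 13.9 RPKM in cKO cold, against 2.68 and 2.30 RPKM in WT cold (2.60 ± 0.32). T and B cell markers gave 1 rise of 6, at a summed level of 42.0 and 21.95 RPKM in cKO cold, against 6.92 and 7.03 RPKM in WT cold, and that rise was lost without WT cold replicate 2 or cKO cold replicate 1, while 2 rose without cKO cold replicate 2. Skeletal muscle markers summed to 32.1 and 257 RPKM in cKO cold, against 42.8 and 33.7 RPKM in WT cold. The myosin Myh4 had 0.147 and 44.2 RPKM in cKO cold, against 0.0192 and 0.0373 RPKM in WT cold, so cKO cold replicate 2 stood apart from the other cold inputs for muscle mRNAs. Replicate 1 of WT RT, which was in the fit, had a higher muscle sum still (398 RPKM, against 28.9 RPKM in WT RT replicate 2).

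**Figure D4:**
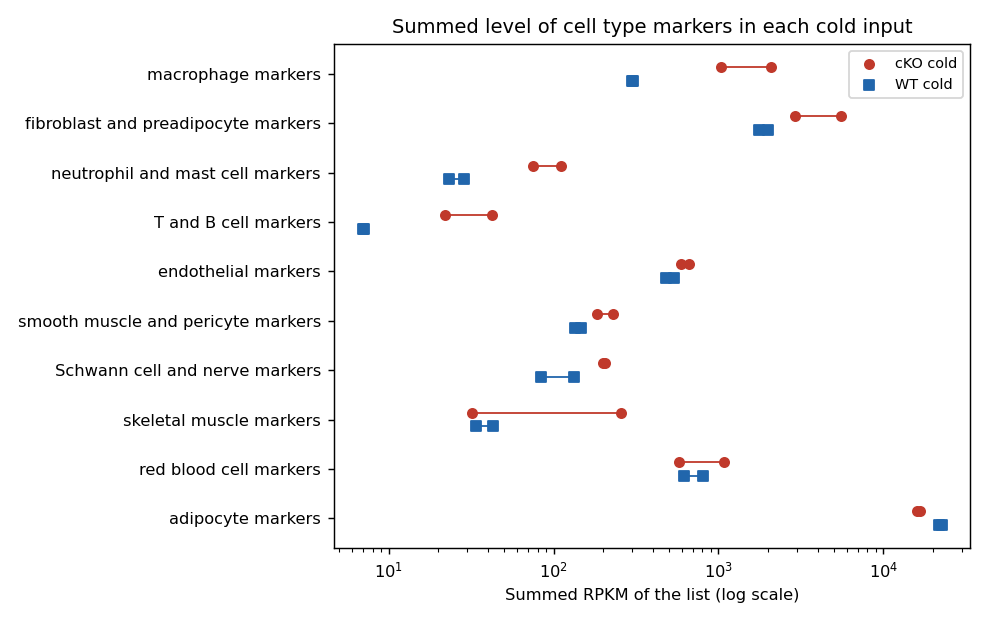
Summed RPKM of each cell type marker list in the 2 cKO cold (red circles) and 2 WT cold (blue squares) inputs on a log scale, joined by a line within a group. All sums but those of adipocyte, skeletal muscle and red blood cell markers lie higher in both cKO libraries than in both WT libraries. Of all genes tested, 58.6% also lie higher in both. Adipocyte sums lie lower, and the skeletal muscle sum is high in 1 of the 2 cKO libraries (257 RPKM).

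Calls among the m6A machinery and transcription factors of adipocytes were near the share of all genes. Of 23 writers, erasers and readers tested, 2 rose and 0 fell (median 0.44 beside 0.42 for all genes), where 5.79% of all genes rose. These were the cytoplasmic readers Ythdf1, with 25.4 and 25.0 RPKM in cKO cold, against 10.96 and 11.2 RPKM in WT cold (1.12 ± 0.16), and Ythdf2, with 18.2 and 21.9 RPKM in cKO cold, against 9.10 and 7.12 RPKM in WT cold (1.21 ± 0.18). The call of Ythdf1 in both fits was lost without any 1 of the libraries, and that of Ythdf2 without any but WT cold replicate 1 or cKO cold replicate 1. Mettl14, the partner of METTL3, had 3.72 and 5.06 RPKM in cKO cold, against 2.69 and 2.29 RPKM in WT cold and did not pass (0.62, adjusted p = 0.0677). The eraser Fto had 27.0 and 24.4 RPKM in cKO cold, against 23.3 and 22.5 RPKM in WT cold (0.16, adjusted p = 0.388). Of 11 KLF factors 1 rose, Klf16 (1.21), and of 21 adipogenic transcription factors 1 rose, Zfp423, a preadipocyte factor that represses the thermogenic programme in white fat, with 25.5 and 23.4 RPKM in cKO cold, against 11.9 and 9.20 RPKM in WT cold (1.15 ± 0.17). The centred call of Klf16 was lost without any 1 library, and that of Zfp423 without any but WT cold replicate 1.

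Several housekeeping and stress groups were higher as deposited, while few of their genes passed after centring. Over all genes tested, 27% were higher as deposited, and in both fits 5.79% rose and 3.27% fell. Of 60 cytosolic ribosomal protein genes tested, 52 were higher as deposited and 2 in both fits (median 0.71), namely Rplp0 (1.01) and Rpl3 (1.00). That count of 2 lies below the share of all genes. It was 0 without either WT RT replicate, WT cold replicate 1 or cKO cold replicate 1, 4 without WT cold replicate 2 and 1 without cKO cold replicate 2. Of 24 endoplasmic reticulum folding genes 17 were higher as deposited and 5 in both fits (median 0.78), or 2 without either WT RT replicate and 3 without WT cold replicate 2 or cKO cold replicate 2. P4hb, the protein disulfide isomerase that is also a subunit of collagen prolyl hydroxylase, had 149 and 170 RPKM in cKO cold, against 62.3 and 57.7 RPKM in WT cold (1.39 ± 0.13). Of 23 replication and mitosis genes 5 rose (median 0.99), or 1 without WT RT replicate 1, WT cold replicate 2 or cKO cold replicate 1, 2 without WT RT replicate 2 and 3 without cKO cold replicate 2. Mcm6, a subunit of the replicative helicase, had 8.83 and 10.2 RPKM in cKO cold, against 2.81 and 1.47 RPKM in WT cold (1.78 ± 0.25). In beta-adrenergic and cAMP signalling 5 of 21 fell and 0 rose (median -0.42), or 10 without WT cold replicate 1. Adcy3, an adenylyl cyclase of adipocytes, had 12.2 and 9.94 RPKM in cKO cold, against 22.3 and 21.4 RPKM in WT cold (-0.93 ± 0.17). Of 28 antioxidant genes 3 fell and 0 rose (median 0.11), or 1 without any library but WT cold replicate 2 and cKO cold replicate 2. Cat, the peroxisomal catalase, had 242 and 208 RPKM in cKO cold, against 395 and 427 RPKM in WT cold (-0.87 ± 0.13).

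A pair of the largest changes fell on members of multigene families, where counting can split reads between near-identical copies, so their values are uncertain. H2-Q10, a secreted class I histocompatibility gene, had 3.23 and 2.32 RPKM in cKO cold, against 38.8 and 43.6 RPKM in WT cold (-3.49 ± 0.18, adjusted p = 0.00108). Mup17, a major urinary protein gene, had 23.7 and 8.86 RPKM in cKO cold, against 0.622 and 0.727 RPKM in WT cold (3.22 ± 0.43). Groups that do not overlap were a condition for these picks. Of all genes tested, 58.6% met it with cKO cold higher and 8.67% with cKO cold lower.

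The same contrast was read in other libraries of the series, anti-m6A precipitates and ribosome-protected fragments (footprints) from cKO cold and WT cold tissue, with 2 libraries per group. Whether they came from the same animals as the inputs is not given. In the footprints 863 of 11803 genes were higher (7.31%) and 215 lower (1.82%), and in the m6A precipitates 1405 of 11258 were higher (12.5%) and 485 lower (4.31%). Of the 663 rises tested in footprints, 311 were called higher there (46.9%) and 0 lower, and of the 368 falls tested, 157 were called lower (42.7%) and 0 higher. In m6A precipitates 474 of 660 rises (71.8%) and 277 of 368 falls (75.3%) were called in the same direction, and 0 in the opposite one. Of the footprint calls, 809 upward and 201 downward were on genes also tested in input, and shared genes made up 38.4% and 78.1% of these. Of the m6A calls, 1372 and 481 were on such genes, and shared genes made up 34.5% and 57.6% of these. These are calls on values as deposited. Each fit also held the 4 cold inputs, which helped to set the spread, so these calls are not independent of the inputs. With the 4 footprint libraries only, 50 genes were higher, fewer than the 311 shared rises, and 41 lower. With the 4 precipitates only, 1556 were higher and 475 lower. With each library centred on its median gene the balance of directions turned, to 127 higher and 383 lower in footprints and 622 higher and 862 lower in m6A precipitates, so that fewer genes were higher in all footprints than the 311 shared rises counted as deposited. The footprint calls leaned on single libraries, as without cKO cold replicate 1 of the footprints 53 genes were higher and 50 lower, without WT cold replicate 2 of them 50 and 55, and without cKO cold replicate 2 of them 450 were higher. Without WT cold replicate 1 of the footprints 135 were lower. The m6A calls numbered between 172 and 562 upward and between 143 and 262 downward when 1 of the 4 precipitates was left out.

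Each of the 12 largest rises and 12 largest falls went the same way in all 3 readouts. In those fits with the inputs, all 12 rises were called in footprints and in m6A precipitates. So were the falls, with the exception of Elovl3 in footprints (-3.37 ± 1.03, adjusted p = 0.0681). Ucp1 changed by -4.73 ± 0.72 in footprints and by -4.89 ± 1.05 in m6A precipitates, beside -4.66 in input. Cd68 rose by 1.47 ± 0.26 in footprints, beside 3.31 in input, and Lyz2 was at 0.62 (adjusted p = 0.367) beside 2.54, and the difference between readouts was not tested. Among the lists, 17 of 33 thermogenic genes were lower in footprints and 24 of 30 in m6A precipitates, and 14 and 19 of 22 TCA cycle genes were lower. Macrophage markers were higher for 5 of 27 in footprints (median 0.90) and for 20 of 25 in m6A precipitates (median 1.97). Mettl3 stood at 8.99 and 5.22 RPKM in cKO cold footprints, against 4.60 and 4.82 RPKM in WT cold footprints, and Klf9 at 16.3 and 19.7 RPKM in cKO cold footprints, against 10.4 and 23.6 RPKM in WT cold footprints. Neither passed (adjusted p = 0.395 and 0.767).

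**Figure D5:**
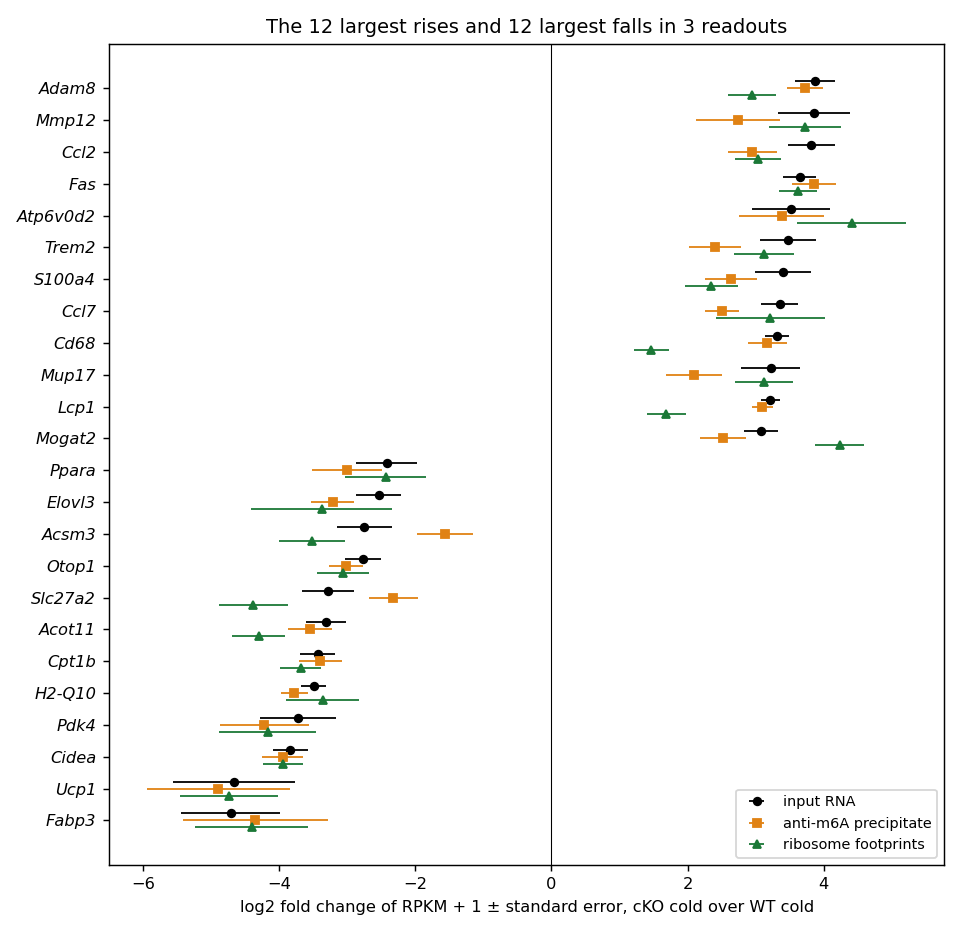
The 12 largest rises and 12 largest falls of the input comparison, with the log2 fold change of RPKM + 1 (cKO cold over WT cold) and its standard error in input RNA (black circles), anti-m6A precipitates (orange squares) and footprints (green triangles). Points of a gene lie on the same side of 0 in all 3 readouts, and Cd68 and Lcp1 lie closer to 0 in footprints than in input.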

How the data were processed

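Input RNA, anti-m6A precipitates and ribosome footprints were deposited as a matrix of RPKM values, which the authors made from reads of TruSeq Small RNA libraries, per the labels' protocols, with HISAT2 and mm10, per the submitters' processing notes; the versions, the counting and the use of strand are not given in the sources used here. Every column of the matrix was mapped to a sample, and 25 symbols stored as dates were turned back into gene names. Of 17883 gene IDs, 17871 matched a table of gene names. Low RPKM values are whole multiples of what 1 read is worth, and on that basis read totals and reads per gene were recovered (tolerance 0.001 read). They cover listed genes and counting error only.

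Genes that reached 1 RPKM in 2 or more of the 4 cold inputs were tested with limma 3.58.1 (R 4.3.3) on the log2(RPKM + 1) scale (moderated, trended variance, two-sided, Benjamini-Hochberg over all genes tested, threshold 0.05), in a fit of 6 inputs with 3 residual degrees of freedom, and again with each library centred on its median gene. The same contrast in footprints and precipitates used a fit of 8 cold libraries each, with the 4 cold inputs among them. The genes named are Mettl3, Klf9 and Ucp1, the 12 largest rises and 12 largest falls called in both fits with groups not overlapping and a mean of at least 5 RPKM in the higher group, the largest called and most abundant members of 53 gene lists, and textbook markers. The genes, lists and rules were chosen with earlier results of these data known, and some named genes are not reported here. Promoters came from RefSeq (GRCm38.p6), in which 9321 of 11609 symbols tested had an entry. Alternatives were other scalings, filters and pseudocounts, the 4 cold libraries alone, a replicate block, and leaving out each library.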

Additional observations from a re-analysis of the deposited data

How the results depend on the processing

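With all else kept, as-deposited calls in input (3148 higher, 381 lower) became 1519 and 237 with the 4 cold inputs only, 675 and 992 with median-gene centring and 808 and 711 with quantile scaling, and 2079 were higher with scaling outside mitochondrial mRNAs, Lars2 and Gm20594. Leaving out 1 library gave 1529 to 3641 higher and 233 to 399 lower. Centred calls (675 and 992) became 292 and 483 with the 4 cold inputs only, 2611 were lower with no filter, and leaving out 1 library gave 298 to 764 higher and 477 to 1086 lower. Calls in both fits (675 and 381) became 292 and 237 with the 4 cold inputs only, and 298 to 764 and 233 to 398 without 1 library. In footprints (863 and 215) the counts were 50 and 41 in the 4 footprint libraries only and 127 and 383 with centring, and 50 to 816 and 50 to 172 without 1 library. In m6A precipitates (1405 and 485) they were 622 and 862 with centring, and 172 to 562 and 143 to 262 without 1 library. The cause was not tested, except that fewer libraries leave fewer residual degrees of freedom (2 in the 4-library fit). Where a group kept 1 library, that library was assumed to vary like the others. Adipoq reversed with centring, to -0.017.

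Same-numbered cold inputs did not deviate together (r = -0.0035 across genes), so the numbers were not taken to pair the inputs. The numbers were not used to pair footprints or precipitates either, where such deviations were not examined. With a replicate block, 3063 genes were higher and 369 lower as deposited, 641 and 941 after centring, and 641 and 369 in both fits. With the block, counts went from 863 and 215 to 1253 and 248 in footprints, and from 1405 and 485 to 1868 and 602 in m6A precipitates. Whether the numbers pair samples in these readouts was not tested. The planned count test was not run, since the deposited values are RPKM. Depth limits genes of few reads, such as Mettl3 with 15 to 92 reads per library.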

Other observations

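The following genes were picked after their values had been seen. Cideb, a lipid droplet and lipoprotein gene related to Cidea, had 0 RPKM in both cKO cold libraries, against 3.61 and 3.52 RPKM in WT cold. The monoacylglycerol acyltransferases moved apart, as Mogat1 had 2.71 and 1.05 RPKM in cKO cold, against 8.82 and 8.96 RPKM in WT cold (-1.84 ± 0.31, limma adjusted p = 0.00791), while Mogat2 rose. Egr2, an immediate early transcription factor, had 8.15 and 5.02 RPKM in cKO cold, against 0.311 and 0.53 RPKM in WT cold (2.39 ± 0.29, limma adjusted p = 0.00391). Of 18 immediate early genes tested, 1 rose and 0 fell (median 0.59), where 5.79% of all genes rose and their median was 0.42.

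Among the cold inputs, muscle mRNAs were high in cKO cold replicate 2. The calcium pump gene Atp2a1 had 0 and 25.4 RPKM in cKO cold, against 0 in both WT cold libraries, and Acta1, skeletal actin, had 1.23 and 40.1 RPKM in cKO cold, against 0.718 and 5.59 RPKM in WT cold. The adipokine Lcn2 was also uneven, with 5.09 and 33.7 RPKM in cKO cold, against 0.378 and 2.70 RPKM in WT cold, and did not pass after centring (adjusted p = 0.117).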
